A study of Schizosaccharomyces pombe with 18 samples.

Results

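Fission yeast cells made to overexpress the ribosomal protein gene rpl32-1 were set directly against cells made to overexpress its paralog rpl32-2, both in early stationary phase. The 6 arrays of this comparison, 3 labelled rpl32-1 and 3 labelled rpl32-2, were chosen by their sample titles from the 18 arrays of the study. The study asked which genes the L32 paralogs regulate differently in growing and in resting cells. All groups were transformants of Schizosaccharomyces pombe SP-Q01 grown in EMM2 minimal medium at 30C. The rpl32-1 cells carried the vector pESP3 with RPL3201, the rpl32-2 cells carried pESP3 with RPL3202, and the WT cells carried the empty vector. The sample labels name pESP3, whereas the methods name pREP3X for overexpression. Early stationary phase cells were collected at an OD600 of 10 and log phase cells at an OD600 of 0.5, with 3 biological replicates for each of the 6 combinations of strain and phase. The WT and the log phase arrays entered the fit and serve here only as points of reference.

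L32 is a protein of the large ribosomal subunit, and S. pombe encodes most of its ribosomal proteins in duplicated, very similar genes. A culture that enters stationary phase runs out of nutrients, stops dividing, lowers the synthesis of ribosomes and turns on genes for alternative carbon sources, stress defence, autophagy and mating. In dividing cells, the factor MBF drives the genes of DNA synthesis at the start of S phase, and glucanases digest the septum to part the daughter cells.

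For the pREP3X plasmids of the methods, each coding sequence was amplified with primers that run from its start codon to its stop codon. The primers are shown because they let the paralogs be compared at both ends. Since the labels name another vector, whether the arrayed cells carried these inserts is not known. The bases that match the gene are in capitals and the added tail with its restriction site (XhoI in the forward and SmaI in the reverse primers) in lower case.
RPL32-1fo: ccgctcgagATGGCTGCAATCAACATTGTC
RPL32-1re: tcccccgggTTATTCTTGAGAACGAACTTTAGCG
RPL32-2fo: ccgctcgagATGGCTGCTGTCAATATCATC
RPL32-2re: tcccccgggTTACTCCTGAGAGCGAACC
The forward primers differ at 5 of the 21 gene bases they share in position, and the reverse primers at 4 of 19. The gene rpl32-1 lies on chromosome II and rpl32-2 on chromosome I.

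Expression was read as log2 values of 2937 probe sets that carry an S. pombe gene name (2899 genes), quantile-normalized over these probe sets. As deposited, the arrays did not share one distribution of values. They fell into 5 sets that run across the groups, with ranked values at most 0.175 apart within a set and at least 0.274 apart between sets (mean absolute log2 difference). In early stationary phase only set 2 held both overexpression strains, with array 1 of rpl32-1 and array 3 of rpl32-2, and it also held WT array 2. The rpl32-1 arrays 2 and 3 were in set 5, while the rpl32-2 arrays 1 and 2 were in sets 1 and 4. Between 0.715% and 2.52% of the S. pombe probe sets were at or below background on the 6 compared arrays, where background is the percentile 95 of the S. cerevisiae probe sets of the same array, against 21.7% on WT array 3. Since the precision is set by 3 arrays per strain, values are given for each array. Unless stated otherwise, an adjusted p is from limma fitted on all 18 arrays and corrected for testing 2937 probe sets (Benjamini-Hochberg). Values from fits without an array and counts at an unadjusted p are named as such.

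The probe sets of the overexpressed genes themselves did not separate the strains. The rpl32-1 probe set read 14.25, 13.55 and 11.68 on rpl32-1 arrays 1 to 3, against 13.41, 12.16 and 12.19 on rpl32-2 arrays and 13.48, 13.61 and 14.29 on WT arrays. The strains overlapped, because rpl32-1 array 3 was the lowest of the 9 arrays. The difference between rpl32-1 and rpl32-2 was 0.57 (log2, SE 0.51, adjusted p = 0.605). The rpl32-2 probe set read 13.55, 13.63 and 8.96 on rpl32-1 arrays, against 13.46, 8.80 and 7.72 on rpl32-2 arrays and 13.50, 13.58 and 13.70 on WT arrays. It was thus low on 2 arrays labelled as overexpressing it and on 1 array labelled rpl32-1, and between 13.46 and 13.70 on the other 6. The difference was 2.05 (SE 1.47, adjusted p = 0.491), with the higher mean in the cultures labelled rpl32-1. At the lower OD600 the rpl32-2 probe set read 13.74, 13.73 and 13.77 on rpl32-1 arrays, against 13.79, 10.88 and 8.40 on rpl32-2 arrays, so that low readings of this probe set were found in both phases. Neither the labels nor the methods say where in the genes the probes lie, and a probe that lies beyond the transcript of the plasmid cannot read it. Whether labels were exchanged cannot be settled from the labels or these values. An exchange of the whole groups would turn the signs below, whereas an exchange of single arrays would change the differences in other ways. The strain names below are those of the labels, and each direction drawn from them carries these limits.

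**Figure D1:**
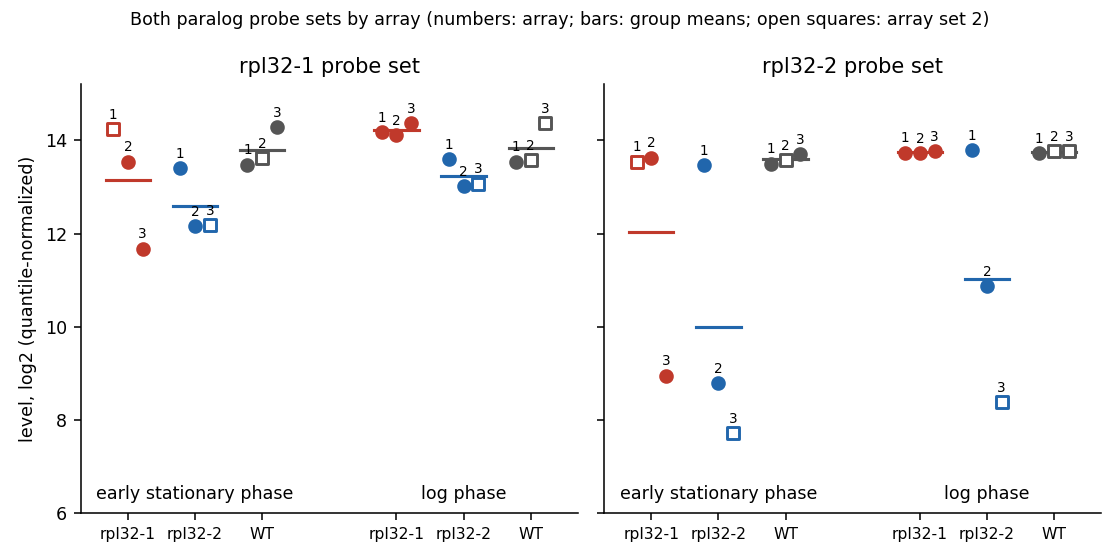
Level of the rpl32-1 probe set (left) and the rpl32-2 probe set (right) on each array, in log2 after quantile normalization, for rpl32-1, rpl32-2 and WT cells in early stationary and in log phase (points: arrays with their number; bars: group means of 3 arrays; open squares: arrays of set 2). The rpl32-2 probe set falls to 8.96 on rpl32-1 array 3 and to 8.80 and 7.72 on rpl32-2 arrays 2 and 3 in early stationary phase, while the other arrays of that phase lie between 13.46 and 13.70.

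The actin gene act1 read 13.61, 13.40 and 13.55 on rpl32-1 arrays and 13.83, 13.80 and 13.56 on rpl32-2 arrays, a difference of −0.21 (SE 0.15, adjusted p = 0.485). The thiamine-repressed gene nmt1, whose promoter drives such expression plasmids in fission yeast, differed by 0.02 (SE 0.09), but stood near the top of the scale on all 6 arrays (14.20 to 14.37), where a difference may not be readable. The S. cerevisiae gene LEU2, a selection marker of such plasmids, was the highest S. cerevisiae probe set on all 18 arrays, at 11.43 to 13.35 as deposited.

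Across the genome, 0 of the 2937 probe sets were called higher in rpl32-1 cells (0%) and 0 were called lower (0%) at an adjusted p under 0.05 and a difference of at least 2-fold. The smallest adjusted p was 0.137. At an unadjusted p under 0.05, 487 probe sets passed, and 39 higher and 27 lower ones of these differed by at least 2-fold. The median difference of all probe sets was −0.02 after normalization and −0.65 as deposited. The 3 arrays of rpl32-1 and the 3 of rpl32-2 did not overlap for 192 probe sets higher and 223 lower in rpl32-1 cells (14.1% of all). With 3 arrays per strain some probe sets separate in this way by chance, and how many was not tested. At least 2-fold and without overlap were 15 higher (0.511%) and 7 lower (0.238%) probe sets, and these are described one by one.

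The count of calls depended on one array. Without rpl32-2 array 3, 80 probe sets were called higher (2.72%) and 86 lower (2.93%) in rpl32-1 cells. Leaving out rpl32-1 array 1 gave 0 higher calls and 1 lower call, cig2, and leaving out any of the other 4 arrays gave 0 calls in either direction. The array that made this difference is the rpl32-2 array of set 2. Whether the set or the culture made it stand apart was not tested. Without it, no array set held early stationary phase arrays of both strains. Strain and array set cannot then be told apart, which limits every value given below without this array.

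Among the 15 probe sets that were higher in rpl32-1 cells, the largest difference belonged to pcm2, which encodes a predicted protein-repair methyltransferase. It read 9.43, 11.14 and 10.64 on rpl32-1 arrays, against 6.11, 6.84 and 9.39 on rpl32-2 arrays, with WT arrays at 11.08, 9.72 and 10.57. The rpl32-2 arrays 1 and 2 were the low ones, and the arrays of set 2 were 0.05 apart. The difference was 2.96 (SE 0.76, adjusted p = 0.137). The cation-transporting ATPase gene cta3 followed the same order of arrays, at 8.49, 9.65 and 9.23 on rpl32-1 arrays against 5.96, 6.29 and 8.45 on rpl32-2 arrays (difference 2.22, SE 0.57, adjusted p = 0.137). The dihydroxyacetone kinase gene dak2, which serves glycerol use, stood at 13.69, 13.70 and 13.85 on rpl32-1 arrays and at 9.92, 12.93 and 13.59 on rpl32-2 arrays. Here rpl32-2 array 1 alone was far below the rest. The invertase gene inv1 read 13.59, 13.75 and 13.97 on rpl32-1 arrays and 12.52, 12.12 and 13.43 on rpl32-2 arrays, a difference of 1.08 (SE 0.66, adjusted p = 0.415). The amine oxidase family gene cao2 read 12.23, 12.37 and 12.28 on rpl32-1 arrays and 10.22, 10.33 and 11.88 on rpl32-2 arrays, a difference of 1.48 (SE 0.36). Its rpl32-1 arrays lay close together (SD 0.07), while the rpl32-2 arrays spread widely (SD 0.93), with arrays 1 and 2 low.

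Stress signalling was represented by mpr1 and pyp2, which encode the phosphotransfer protein upstream of the stress kinase Sty1 and the tyrosine phosphatase that switches Sty1 off. The mpr1 probe set read 9.21, 9.59 and 10.02 on rpl32-1 arrays and 7.72, 8.81 and 8.89 on rpl32-2 arrays, a difference of 1.13 (SE 0.37, adjusted p = 0.165). The pyp2 probe set read 10.89, 10.86 and 11.89 on rpl32-1 arrays and 8.99, 10.73 and 10.10 on rpl32-2 arrays. Of the 15, pyp2 had the largest difference between the arrays of set 2, at 0.79, against 1.51 for the 4 arrays outside it. Of the remaining genes, meu10 of the spore wall differed by 1.01 (SE 0.26), the kinetochore gene fta6 by 1.38 (SE 0.41), the end-joining DNA polymerase gene pol4 by 1.01 (SE 0.40) and mug182 by 1.14 (SE 0.41). The uracil-induced gene urg1 differed by 1.02 (SE 0.39), and by 0.59 without rpl32-1 array 3. The adjusted p of these 5 genes lay between 0.137 and 0.219.

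The wtf genes, a family of selfish meiotic drivers, gave 3 of the 15 probe sets. The wtf17 probe set read 7.78, 8.50 and 8.59 on rpl32-1 arrays, against 6.34, 6.60 and 7.72 on rpl32-2 arrays, with a difference of 1.40 (SE 0.32, adjusted p = 0.137). One wtf20 probe set differed by 1.24 (SE 0.38) and another by 1.35 (SE 0.42). In each of these 3 probe sets rpl32-2 arrays 1 and 2 were the lowest of the 6 arrays. The wtf copies are close in sequence, and their probe sets may read more than 1 copy.

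Among the 7 probe sets that were lower in rpl32-1 cells, the largest difference belonged to cig2, the B-type cyclin gene of G1/S and a target of MBF. It read 9.69, 7.85 and 8.0 on rpl32-1 arrays, against 10.96, 10.52 and 9.76 on rpl32-2 arrays and 7.97, 9.17 and 8.80 on WT arrays. The difference was −1.90 (SE 0.42, adjusted p = 0.137), while within set 2 it was −0.07. The MBF activator gene rep2 read 8.60, 8.23 and 8.49 on rpl32-1 arrays and 9.96, 9.57 and 8.92 on rpl32-2 arrays (difference −1.04, SE 0.29). The α-tubulin gene atb2 read 9.35, 8.86 and 8.57 on rpl32-1 arrays and 11.18, 10.79 and 9.37 on rpl32-2 arrays (difference −1.52, SE 0.36). In both genes rpl32-2 arrays 1 and 2 were the high ones. The sterol reductase gene erg27 differed by −1.24 (SE 0.31), the nucleotide-sugar transporter gene hut1 by −1.12 (SE 0.27) and the cell wall glucanosyltransferase gene gas5 by −1.11 (SE 0.31), each with an adjusted p of 0.137. Without rpl32-1 array 3 the difference of gas5 was −0.65.

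The copper transporter gene ctr4 was the exception among the 22. It read 8.94, 8.14 and 8.37 on rpl32-1 arrays, against 9.45, 9.72 and 10.00 on rpl32-2 arrays and 9.0, 9.04 and 9.11 on WT arrays. All 3 rpl32-2 arrays lay above every rpl32-1 and WT array, and rpl32-2 array 3 was the highest. The difference was −1.24 (SE 0.27, adjusted p = 0.137), with −1.06 within set 2 and −1.33 outside it. Its partner subunit ctr5 read 10.03, 10.30 and 10.14 on rpl32-1 arrays and 10.90, 11.20 and 10.56 on rpl32-2 arrays, again with no overlap, and differed by −0.73 (SE 0.20, adjusted p = 0.137), with −0.53 within set 2 and −0.83 outside it. The vitamin B6 synthesis gene snz1 had the smallest unadjusted p of all. It read 12.49, 12.48 and 12.49 on rpl32-1 arrays and 12.98, 13.10 and 12.97 on rpl32-2 arrays, while WT arrays lay between at 12.58, 12.74 and 12.70. Its difference was −0.53 (SE 0.10, adjusted p = 0.137), with −0.48 within set 2 and −0.56 outside it. With an intensity trend and robust variances in limma, snz1 was the only probe set with an adjusted p under 0.05 (0.00479), although it stayed below the 2-fold limit.

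**Figure D2:**
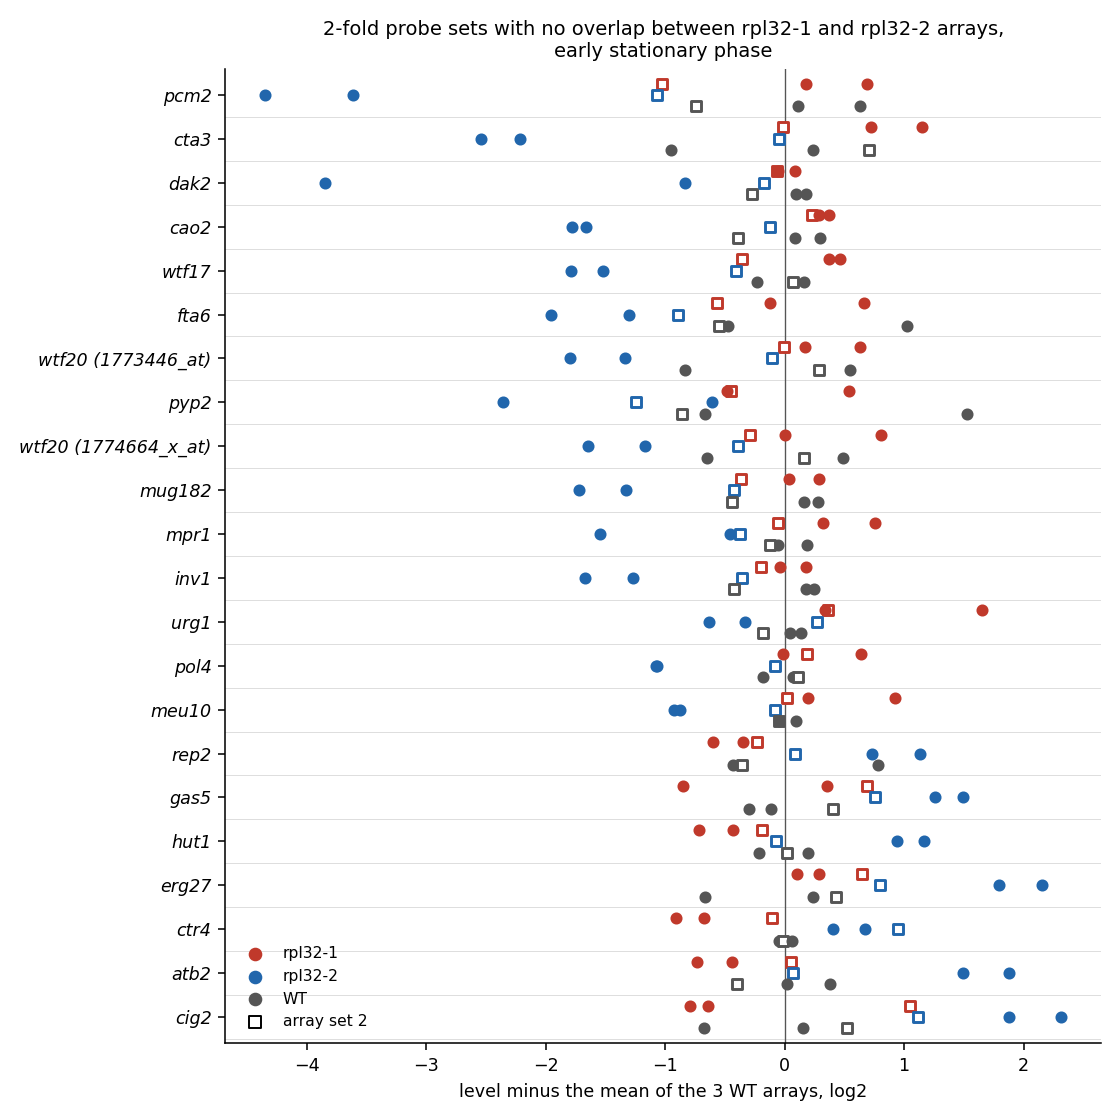
Level of the 22 probe sets that differed at least 2-fold without overlap between the strains, as the log2 value of each array minus the mean of the 3 WT arrays (rows: probe sets ordered by the strain difference; colours: strains; open squares: arrays of set 2). The open squares of rpl32-1 and rpl32-2 are furthest apart for ctr4 (−1.06) and pyp2 (0.79), and the filled rpl32-2 points, arrays 1 and 2, lie beyond them in most rows.

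The pairs of single arrays show how far the strain difference followed the sets. Between rpl32-1 array 1 and rpl32-2 array 3, which share set 2, 6 probe sets were at least 2-fold higher and 4 were lower, and the values correlated at r = 0.994 across probe sets. The same rpl32-2 array differed 2-fold from rpl32-1 array 2 in 15 higher and 26 lower probe sets, and from rpl32-1 array 3 in 65 and 55. The pairs with rpl32-2 array 1 or 2 gave 98 to 191 higher and 104 to 163 lower probe sets. Within the strains, rpl32-2 array 3 was 2-fold apart from its own replicates in 325 (array 1) and 233 (array 2) probe sets, whereas arrays 1 and 2, which belong to different sets, differed in 30. The rpl32-1 replicates differed from each other in 40, 71 and 100 probe sets. WT array 3 stood further from its replicates, at 408 (array 1) and 500 (array 2) probe sets, whereas WT arrays 1 and 2 differed in 82. It is part of the WT means used below. With WT array 2, which is also in set 2, rpl32-2 array 3 differed in 10 probe sets, whereas rpl32-2 array 1 and WT array 1, which share set 1, differed in 223. A shared set thus went with few differences in set 2 and with many in set 1.

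**Figure D3:**
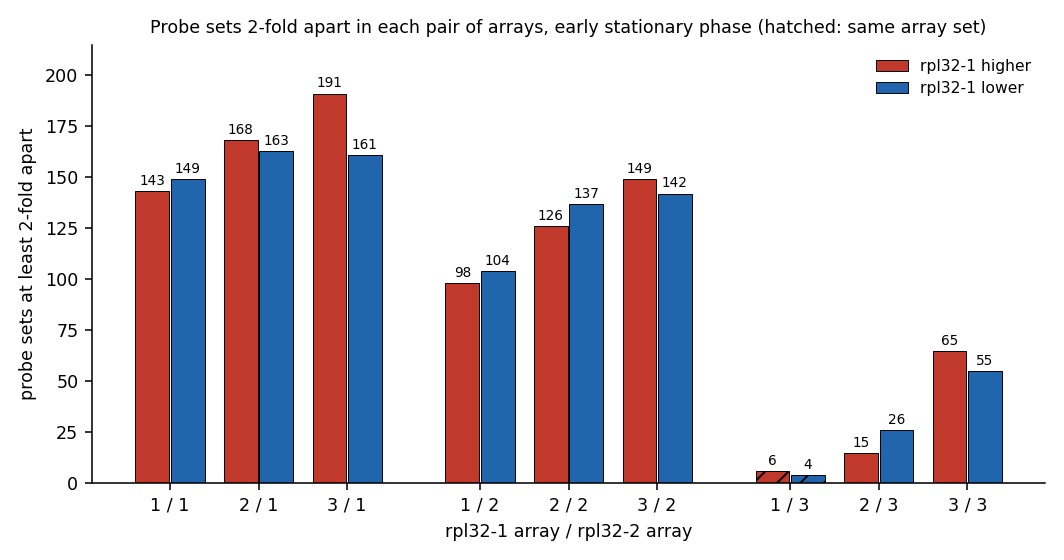
Number of probe sets at least 2-fold higher (red) or lower (blue) on an rpl32-1 array than on an rpl32-2 array, for each of the 9 pairs of arrays in early stationary phase (hatched: the pair that shares array set 2). The pairs with rpl32-2 array 3 give 6 to 65 higher and 4 to 55 lower probe sets, and the other 6 pairs give 98 to 191 and 104 to 163.

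The 4 arrays outside set 2 (rpl32-1 arrays 2 and 3, rpl32-2 arrays 1 and 2) differed by at least 2-fold in 250 probe sets, of which 126 were higher and 124 lower in rpl32-1 cells. Of the 126, 45 (35.7%) were also higher within set 2, at a median of −0.06 there and 1.32 outside. Of the 124, 40 (32.3%) were also lower within set 2, at a median of 0.09 there and −1.23 outside. Of all 2937 probe sets, 46.5% were higher within set 2. Across probe sets the strain difference within set 2 and that outside it correlated at r = −0.17 (rho = −0.14), where the value within set 2 rests on 1 array per strain and no array is shared. For these 250 probe sets, rpl32-2 array 3 lay nearer to the mean of rpl32-1 arrays 2 and 3 than to the mean of rpl32-2 arrays 1 and 2 in 218 (87.2%), and rpl32-1 array 1 did so in 211 (84.4%). The WT arrays, of sets 1, 2 and 3, lay nearer to these rpl32-1 arrays in 210, 225 and 198 of the 250. The rpl32-2 arrays 1 and 2 were therefore the pair that differed from the rest of the early stationary phase arrays in most of these genes.

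Within set 2 only 10 probe sets were at least 2-fold apart, and those not described above are named here after their values were seen. The 6 probe sets at least 2-fold higher on rpl32-1 array 1 than on rpl32-2 array 3 were rpl32-2 (5.82), the bZIP factor gene atf21 (2.44), rpl32-1 (2.06), the glycerol-3-phosphate dehydrogenase gene gut2 (1.47), the cell separation gene adg1 (1.2) and the meiotic gene mde7 (1.15). The 4 lower ones were the maltase gene mal1 (−2.98), the subtelomeric helicase gene tlh2 in 1 of its probe sets (−1.10), ctr4 (−1.06) and the ferric reductase gene frp1 (−1.04). Of these 10, ctr4 was the only one that was at least 2-fold apart in the same direction outside set 2. For mal1 the rpl32-1 arrays read 6.66, 7.16 and 9.68 and the rpl32-2 arrays 7.06, 9.55 and 9.64. The high mal1 arrays, rpl32-1 array 3 and rpl32-2 arrays 2 and 3, were the same 3 arrays on which the rpl32-2 probe set was low.

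**Figure D4:**
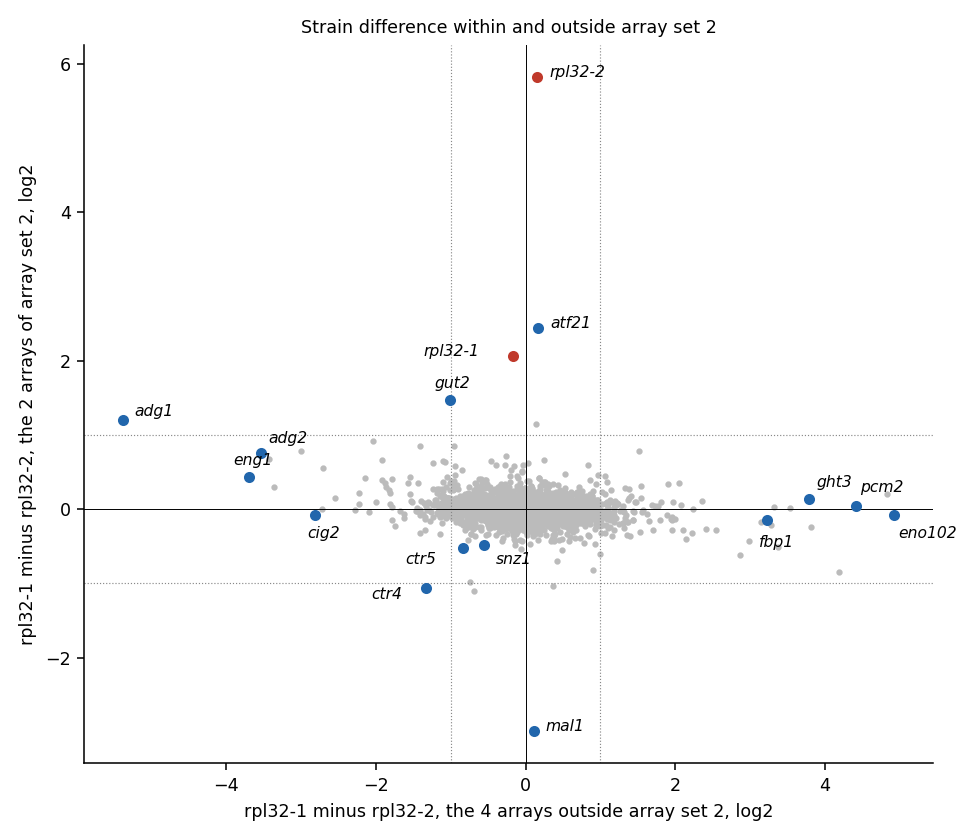
Strain difference (rpl32-1 minus rpl32-2, log2) of the 4 arrays outside array set 2 (horizontal axis) against that of the 2 arrays within it (vertical axis), for 2937 probe sets in early stationary phase, with dotted lines at 2-fold. Most genes spread along the horizontal axis and stay near 0 on the vertical axis, whereas rpl32-2 reaches 5.82 and mal1 −2.98 on the vertical axis alone, and ctr4 lies beyond the lines on both.

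Gene lists were described by their members and medians beside the median of all probe sets, −0.02. No list held a called probe set, in a comparison where none was called at all. The cell separation list, the septum-degrading glucanases and their partners, had the lowest median of the 34 lists, −1.06 over 7 probe sets, with 6 of them lower in rpl32-1 cells. The gene adg1 read 8.11, 5.81 and 6.80 on rpl32-1 arrays, against 11.94, 11.42 and 6.91 on rpl32-2 arrays and 6.45, 5.82 and 7.08 on WT arrays. Its rpl32-2 arrays 1 and 2 stood far above every other array of the phase, while rpl32-2 array 3 lay among the rpl32-1 and WT arrays, so that the strains overlapped (difference −3.19, SE 0.93, adjusted p = 0.137). The endoglucanase gene eng1, which digests the septum, read 7.94, 8.06 and 7.24 on rpl32-1 arrays and 11.65, 11.05 and 7.50 on rpl32-2 arrays. The adg2 and adg3 genes repeated this order, with differences of −2.11 and −1.06. Without rpl32-2 array 3, 5 of the 7 passed the test as lower, where 2.93% of all probe sets did. Of these 7, adg1 differed by −4.81 (SE 0.48, adjusted p = 8.2e-05) and eng1 by −3.63 (SE 0.34, adjusted p = 5.66e-05) in that fit. Within set 2 the list had a median of 0.66, that is, of the other sign.

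Of the 19 probe sets of MBF and its G1/S genes, 14 were lower in rpl32-1 cells, at a median of −0.52 (−0.87 outside set 2 and 0.09 within it). The replication licensing gene cdc18 read 7.88, 7.26 and 7.83 on rpl32-1 arrays and 10.16, 10.03 and 7.73 on rpl32-2 arrays (difference −1.65, SE 0.46, adjusted p = 0.137). The ribonucleotide reductase gene cdc22 read 10.47, 9.35 and 10.15 on rpl32-1 arrays and 11.93, 11.58 and 10.38 on rpl32-2 arrays (difference −1.31, SE 0.38). Without rpl32-2 array 3, 7 of the 19 passed as lower and 0 as higher, where 2.93% of all probe sets passed as lower, among them cdc18 by −2.47 (SE 0.23, adjusted p = 5.66e-05). Other DNA replication genes, 38 probe sets, had a median of −0.06 and no call without that array. The 12 septation initiation network probe sets had a median of 0.05, 6 of them higher and 6 lower, with differences of −0.93 to 0.75. Without rpl32-2 array 3, 1 of the 12 passed as higher and 1 as lower, where 2.72% and 2.93% of all probe sets did.

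In the hexose transport and alternative carbon list 17 of 25 probe sets were higher in rpl32-1 cells and 8 lower, with differences of −1.73 to 3.26. The median was 0.42, with 0.66 outside set 2 and 0.02 within it. Without rpl32-2 array 3, 7 of these passed as higher and 1 as lower, against 2.72% and 2.93% of all probe sets. The enolase gene eno102 read 13.65, 13.80 and 13.76 on rpl32-1 arrays, against 8.01, 9.69 and 13.72 on rpl32-2 arrays and 13.41, 13.84 and 13.60 on WT arrays. The fructose-1,6-bisphosphatase gene fbp1, needed for gluconeogenesis and repressed by glucose, read 13.92, 13.99 and 13.92 on rpl32-1 arrays and 9.62, 11.83 and 14.06 on rpl32-2 arrays. In both genes only rpl32-2 arrays 1 and 2 were low, and the difference within set 2 was −0.08 for eno102 and −0.14 for fbp1. The hexose transporter family gene ght3 (difference 2.57, SE 0.79) and the α-galactosidase gene mel1 (2.36, SE 0.72) had an adjusted p of 0.148 each. Without rpl32-2 array 3 the differences were 4.92 for eno102 (adjusted p = 0.000507), 3.24 for fbp1 (adjusted p = 0.00241), 3.70 for ght3 (adjusted p = 0.00178) and 3.44 for mel1 (adjusted p = 0.00104). The metallothionein gene zym1 read 13.34, 13.92 and 14.14 on rpl32-1 arrays and 9.50, 10.92 and 13.58 on rpl32-2 arrays, a difference of 2.47 (SE 0.91, adjusted p = 0.207).

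Of 22 probe sets for autophagy and vacuolar proteases, 21 were higher in rpl32-1 cells, at a median of 0.44. The median was 0.68 outside set 2 and −0.03 within it. At an unadjusted p under 0.05, 10 were higher and 0 lower, where 487 of all 2937 passed in both directions together. Without rpl32-2 array 3, 0 of the 22 passed in either direction, where 2.72% of all probe sets passed as higher and 2.93% as lower. The ubiquitin-like gene atg8 read 11.06, 11.43 and 11.73 on rpl32-1 arrays and 10.45, 10.82 and 10.73 on rpl32-2 arrays. The strains did not overlap for atg8, and its difference was 0.74 (SE 0.27, adjusted p = 0.207). For atg1802 the difference was 0.81 (SE 0.24, adjusted p = 0.148). Of the 26 wtf probe sets 23 were higher, at a median of 0.53. Without rpl32-2 array 3, 6 of the 26 passed as higher, where 2.72% of all probe sets did. Core stress and antioxidant genes (36 probe sets) had a median of 0.13, with differences of −0.51 to 2.47. The 91 mug probe sets had a median of 0.06, with mug168 at a difference of 2.10 (SE 0.52, adjusted p = 0.137). Without rpl32-2 array 3, 4 of the 36 and 8 of the 91 passed as higher and 0 of either list as lower. Of all probe sets, 2.72% passed as higher and 2.93% as lower there. The gene mug108, chosen after its values were seen, read 12.24, 11.99 and 13.21 on rpl32-1 arrays and 7.39, 8.15 and 12.03 on rpl32-2 arrays (difference 3.29, SE 1.21, adjusted p = 0.206). The meiotic recombination gene rec6 differed by 1.85 (SE 0.49, adjusted p = 0.137) and overlapped between the strains.

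Ergosterol synthesis and sterol response genes were lower in 18 of 23 probe sets, with a median of −0.41. The sterol methyltransferase gene erg6 read 11.36, 10.73 and 11.01 on rpl32-1 arrays and 12.45, 12.23 and 11.39 on rpl32-2 arrays (difference −0.98, SE 0.26, adjusted p = 0.137). The gene erg4, of the last step of ergosterol synthesis, differed by −0.93 (SE 0.24), and the HMG-CoA reductase gene hmg1 by −0.55 (SE 0.16). Without rpl32-2 array 3, 6 of the 23 passed as lower and 1 as higher, where 2.93% and 2.72% of all probe sets did. Proteasome genes were lower in 29 of 32 probe sets at a median of −0.19, with rpt5 at −0.79 (SE 0.21) and rpn11 at −0.78 (SE 0.21), and 0 of the 32 passed without that array. Amino acid synthesis genes were lower in 27 of 37 at a median of −0.21, and heat shock and chaperone genes in 13 of 17 at −0.22.

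The ribosomal protein lists were close to the median of all genes. The 72 large-subunit probe sets, the L32 paralogs included, had a median of 0.01, and 36 of them were higher and 36 lower. The 49 small-subunit probe sets had a median of −0.02. The 46 probe sets of ribosome biogenesis and of polymerases I and III had a median of 0.02, with 24 higher and 22 lower. None of these 3 lists gained a call without rpl32-2 array 3.

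**Figure D5:**
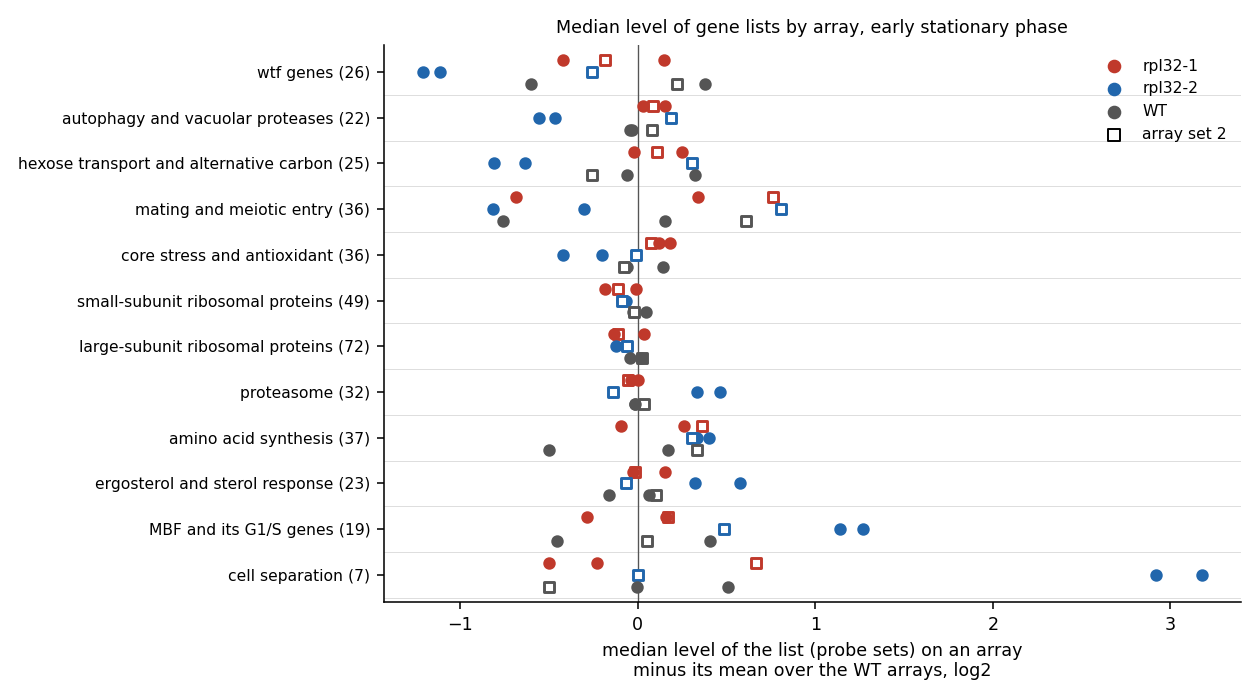
Median level of 12 gene lists on each array in early stationary phase, as the log2 median minus its mean over the 3 WT arrays (rows: lists with their number of probe sets; colours: strains; open squares: arrays of set 2). The filled rpl32-2 points, arrays 1 and 2, stand to the right of the other arrays for cell separation and MBF genes and to the left for wtf, autophagy and alternative carbon genes, while all arrays meet near 0 for both ribosomal protein lists.

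The probe sets at least 2-fold apart without overlap mostly had the sign of the difference between the phases in WT cells. That sign was read from the WT means, and no test of the WT phase difference was run. Of the 15 higher probe sets all 15 were also higher in WT cells in early stationary than in log phase, against 46% of all probe sets. Of the 7 lower ones 6 were lower in WT early stationary phase, the exception being ctr4, against 54% of all. The WT early stationary mean lay nearer to the rpl32-1 mean than to the rpl32-2 mean for 14 of the 15, with urg1 as the exception, and for all 7. Of the probe sets called without rpl32-2 array 3, 78 of the 80 higher ones were higher, and 83 of the 86 lower ones were lower, in WT early stationary than in WT log phase. Across all probe sets the strain difference and the WT phase difference, which share no array, correlated at r = 0.72. The corresponding value was 0.71 for the 4 arrays outside set 2 and −0.04 for the 2 arrays within it.

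Whether the strain difference itself depended on the phase was tested as the difference in early stationary phase minus the difference in log phase. This gave 0 calls (0%), with a smallest adjusted p of 0.17, and 354 probe sets had an unadjusted p under 0.05, 104 of them with a difference of at least 2-fold. In log phase the strains were at least 2-fold apart in 19 higher and 9 lower probe sets, against 49 and 33 in early stationary phase. The cell separation genes adg1 and eng1 differed by −0.05 and −0.03 in log phase, and cdc18 by −0.08. The difference between the phases was −3.14 for adg1 (SE 1.31, adjusted p = 0.368) and −2.29 for eng1 (adjusted p = 0.388), neither of which passed.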

How the data were processed

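Total RNA of 18 yeast cultures was hybridised to 1-colour arrays with probes for S. pombe as well as S. cerevisiae. The log2 values were deposited by the authors, who made them with RMA in Partek per the submitters' processing notes; which arrays were normalized together is not stated there or in the methods. Of 10928 probe sets 5538 had a gene name, and the 2937 of S. pombe were kept (2917 of 1 gene, 20 of several), with 110 symbols updated. The 2601 of S. cerevisiae served for the background, and 5177 unnamed and 213 control probe sets were not used. Every column belonged to a sample, and no arrays were identical.

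The values were quantile-normalized over the S. pombe probe sets, and 1 mean was fitted for each of the 6 groups (limma 3.58.1, statmod 1.5.0, R 4.3.3; 12 residual degrees of freedom; two-sided p). A call needed an adjusted p under 0.05 and 2-fold. Array sets were formed by single linkage at 0.2 (log2). Figures and tables used Python 3.11.15, pandas 2.3.3 and matplotlib 3.10.9. The fit alone was tested on simulated data with known differences, which held no array sets.

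The genes named are the paralogs, act1, nmt1 and LEU2, up to 15 in each direction that were called or, in default, 2-fold without overlap, up to 4 of each list with an unadjusted p under 0.05, and 5 for the phases. Further genes were picked once their values were known, as stated beside them. The members and the 34 gene lists were chosen with earlier results of these data known. The alternatives were other normalizations, samples, variance models, blocks, filters, thresholds, tests and each array left out. The promoter motif counts that had been planned were not run.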

Additional observations from a re-analysis of the deposited data

Results flagged for a closer look

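For 4 of the genes named here the strains moved in opposite ways in the 2 phases, with no overlap between their arrays in either phase. The difference in early stationary phase minus that in log phase was 2.33 for wtf17 (1.40 in early stationary phase and −0.92 in log phase), 1.25 for the sorting nexin gene mvp1 (0.50 and −0.75), −0.69 for snz1 (−0.53 and 0.16) and −1.92 for mug24 (−0.86 and 1.06). The test of this difference in limma gave an adjusted p of 0.17 for the first 3 and of 0.344 for mug24, so none passed. On the log phase arrays of both strains wtf17 read 4.47 to 6.09 and mug24 4.65 to 6.63. The background of these arrays was 4.85 to 6.17 as deposited, so both genes lay near the floor there. In early stationary phase mug24 was also dim, at 4.72 to 6.47. Of all 2937 probe sets, 21 had opposite differences in the 2 phases without overlap in either. How many would do so by chance was not tested.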

How the results depend on the processing

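The strain comparison kept 0 calls in either direction under the other normalizations, sample choices, filters, thresholds and blocks tried, except as follows. Array weights gave 85 higher and 100 lower calls, and 289 for the difference between the phases, with a weight of 0.164 for rpl32-2 array 3 (the weights did not settle within the allowed steps); they also put the rpl32-2 probe set at 3.29 (adjusted p = 0.0221). Leaving out both strains' arrays of set 2, chosen after seeing the data, gave 87 and 101. At an unadjusted p under 0.05 and 2-fold, also chosen later, 39 and 27 passed, and the methods' t-test gave 2 and 3 before and 0 and 0 after Benjamini-Hochberg. Leaving out 1 array gave 0 to 80 higher and 0 to 86 lower calls and 0 to 153 for the phases, with 80, 86 and 153 each without rpl32-2 array 3. The rpl32-1 probe set then ranged over 0.03 to 1.30 and the rpl32-2 probe set over 0.92 to 3.80. With the replicate number as a block there were 0 and 0 calls (smallest adjusted p 0.0965). Same-numbered arrays of the strains deviated from their group means with r = −0.11, −0.19 and −0.23, so none correlated best with its own number. Whether same-numbered cultures were grown together cannot be settled by deviations from means of 3 arrays.

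Leaving out 1 of the 6 arrays moved list medians by over 1.5 times: MBF ranged over −0.73 to −0.29, ergosterol −0.59 to −0.23, proteasome −0.33 to −0.11, amino acid synthesis −0.28 to −0.10, heat shock −0.35 to −0.16, cell separation −1.68 to −0.76, wtf 0.34 to 0.71, alternative carbon 0.32 to 0.64, core stress 0.07 to 0.21 and mating 0.09 to 0.40, and medians near 0 moved as well. With the deposited values, where the median of all was −0.65, alternative carbon was −0.14, autophagy −0.23, wtf −0.19 and core stress −0.35, below 0 but above that median. Genes that changed sign were these; the cause was not tested. With the deposited values nmt1 was −0.25, mvp1 −0.15, mam2 −0.11 and mde7 −0.19. For nmt1, normalization over both species gave −0.0046, the 6 arrays alone −0.0040 and array sets as a fixed block −0.031. That block gave −0.23 for mam2, 0.013 for tlh2 and 1.26 for gut2, and a random block 0.30 for gut2. Cyclic loess gave 0.043 for frp1. Without the arrays of set 2, mal1 was 0.12 and frp1 0.36. Leaving out 1 array gave −0.014 to 0.067 for nmt1, −0.16 to 1.91 for mam2, −1.40 to 0.69 for frp1 and −1.07 to 0.30 for gut2. In the main fit even the largest differences, such as 3.29 for mug108, were not called. For mug108 rpl32-2 array 3 read 12.03, against 7.39 and 8.15 on rpl32-2 arrays 1 and 2. In the limma fit without that array, mug108 was called (difference 4.75, adjusted p = 0.0102). Strain and array set cannot be told apart in that fit.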

Other observations

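Genes of mating and of iron uptake, chosen after their values were seen, varied widely among the arrays of each strain. The pheromone precursor gene mfm3 (M-factor) read 13.44, 12.08 and 8.2 in 1 of its probe sets on rpl32-1 arrays, against 6.72, 7.25 and 13.61 on rpl32-2 arrays and 11.23, 13.54 and 4.70 on WT arrays. The pheromone receptor gene mam2 read 11.92, 10.78 and 8.63 on rpl32-1 arrays, against 8.16, 8.94 and 12.28 on rpl32-2 arrays and 9.81, 12.06 and 8.8 on WT arrays. The gene ste11, the transcription factor of mating and meiosis, read 13.05, 12.56 and 12.27 on rpl32-1 arrays, against 10.88, 11.79 and 13.19 on rpl32-2 arrays and 12.33, 12.88 and 11.14 on WT arrays. In all 3 genes the highest array of each strain, WT included, was its array of set 2. The mating and meiotic entry list as a whole had a median difference of 0.20 over 36 probe sets.

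The iron-regulated transporter gene str3 read 8.23, 7.82 and 11.74 on rpl32-1 arrays, against 4.45, 6.74 and 9.07 on rpl32-2 arrays and 5.20, 6.5 and 12.26 on WT arrays, so that array 3 was the highest of each strain. The ferric reductase gene frp1 had its highest array in rpl32-1 array 3, at 12.17, and its lowest in WT array 1, at 6.02.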
